A study of Mus musculus with 6 samples.

Results

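Transcripts of secreted muscle growth regulators and their receptors were examined in quadriceps muscle of mice with and without Pofut1. The genes were chosen by name as 8 members of the myostatin and insulin-like growth factor (IGF) systems, namely Mstn, Fst, Acvr2b, Igf1, Igf2, Igf1r, Igfbp4 and Igfbp5, among 18194 genes with values. Of these 8 genes, 7 were represented by 24 probe sets that the platform annotation assigned to 1 gene only. The annotation paired no probe set with Mstn, and myostatin itself was not analysed here.

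RNA came from 2-month-old C57/Bl6 mice, with 1 Affymetrix mouse array per sample. The knockout group held 3 samples that carried a skeletal α actin cre transgene together with Pofut1flox/flox alleles. The control group held 3 samples that carried the same transgene and wild-type Pofut1, so both groups expressed Cre. This promoter is active in skeletal muscle fibres, so other cells of the muscle were not the target of the deletion. Pofut1 encodes protein O-fucosyltransferase, an enzyme of the endoplasmic reticulum that Notch receptors need for normal signalling. The question was how muscle transcripts change on loss of this gene.

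Myostatin, encoded by Mstn, is a TGF-β family hormone of muscle that limits muscle mass. It binds the activin type II receptor encoded by Acvr2b and signals through SMAD proteins, and follistatin, the product of Fst, captures it and related activins outside the cell. IGF-I and IGF-II act in the opposite direction, through the receptor tyrosine kinase encoded by Igf1r and the Akt and mTOR kinases. IGF-binding proteins hold the ligands in the extracellular fluid, and IGFBP-5 is induced as myoblasts differentiate.

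The sample labelled control replicate 3 was unlike the rest. Its log2 values over all genes correlated with those of the other 5 arrays at 0.940 to 0.945, while these correlated with each other at 0.980 to 0.991. The ratio of 3′ to 5′ probe signal of Gapdh, a measure of RNA integrity and cDNA length, was 3.70 in knockout replicate 2 and 10.5 in the sample labelled control replicate 3. The remaining 4 arrays had ratios of 1.73 to 1.97. Pofut1 intensity at its brightest probe set was 220.1, 231.1 and 194.3 for the 3 knockout samples. It was 301.4, 379.8 and 90.6 for the samples labelled control replicates 1 to 3, and the last of these lay below every knockout value. That array was also the lowest of all 6 at 47.6% of all probe sets above background. Whether its low Pofut1 value came from a wrong label or from its RNA was not tested. All 8 markers of skeletal fibres were above background, with a summed intensity of 65508 to 69415 in knockout and 61453 to 65503 in control samples. Background was an intensity of 59.8, the 95th percentile of 38 genes restricted to other tissues. Xist, a transcript of the inactive X chromosome, was high in knockout replicate 2 and control replicate 2, at 1349.2 and 1414.1, and read 42.7 to 67.6 in the remaining 4. Fold changes of the member genes, the gene lists and the named pathway genes are given with and without the sample labelled control replicate 3.

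RefSeq promoter windows of the members, 250 bases before to 50 bases after a transcription start on assembly GRCm38.p6, were searched for the Notch effector motif. GTGGGAA, the core of the site bound by RBPJ, the DNA-binding partner of the Notch receptors, was searched on both strands together with the E-box CANNTG, the site bound by myogenic factors. Windows were found for 7 of the 8 members, all but Fst, 10 windows in all, with 4 of them for Igf2. GTGGGAA was found in 1 of the 10 windows, at an Igf2 start, 48 bases before it, and in 6.38% of all 32851 windows. An E-box lay in 72.3% of all windows. Of the 4 Igf2 windows the one with this motif is shown, and which Igf2 start was used in this muscle was not tested. The Igf1 and Igfbp5 windows are shown because both genes had probe sets that were low in the same arrays. Capitals mark GTGGGAA or an E-box, and the marked stretches did not overlap. Such a match describes the letters and not a bound site.
Igf2 promoter (chr7:142666767-142667066, minus strand): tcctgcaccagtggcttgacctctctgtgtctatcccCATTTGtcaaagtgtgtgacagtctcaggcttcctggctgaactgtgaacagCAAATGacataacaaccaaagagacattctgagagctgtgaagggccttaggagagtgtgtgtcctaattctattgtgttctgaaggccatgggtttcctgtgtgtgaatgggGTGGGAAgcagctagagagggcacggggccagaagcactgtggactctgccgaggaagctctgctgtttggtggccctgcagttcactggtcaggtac
Igf1 promoter (chr10:87860861-87861160, plus strand): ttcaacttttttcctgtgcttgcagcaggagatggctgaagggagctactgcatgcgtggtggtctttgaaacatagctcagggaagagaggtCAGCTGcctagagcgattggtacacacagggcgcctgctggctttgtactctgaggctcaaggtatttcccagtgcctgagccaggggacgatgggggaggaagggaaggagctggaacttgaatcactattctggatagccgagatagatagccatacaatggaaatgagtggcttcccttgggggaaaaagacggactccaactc
Igfbp5 promoter (chr1:72874816-72875115, minus strand): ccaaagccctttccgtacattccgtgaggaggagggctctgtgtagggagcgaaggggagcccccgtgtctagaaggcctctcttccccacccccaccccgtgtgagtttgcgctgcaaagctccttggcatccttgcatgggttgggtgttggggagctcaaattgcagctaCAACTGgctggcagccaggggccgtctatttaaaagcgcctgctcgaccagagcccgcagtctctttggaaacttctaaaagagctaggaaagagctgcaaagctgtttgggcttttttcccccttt

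No member gene differed between knockout and control muscle past the threshold, an adjusted p of 0.05 in limma. Each gene was taken at the probe set with the highest mean, and 7 of 7 lay above background. None of the 7 was called, as was none of all genes (0%), and 0 of the 7 had an unadjusted limma p under 0.05, against 2.58% of all genes. The groups overlapped for 7 of 7 members, where 9.01% of all genes had groups that did not overlap. The median log2 fold change was 0.02 over the 7 members and -0.01 over all genes. Differences below are therefore given as values.

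**Figure D1:**
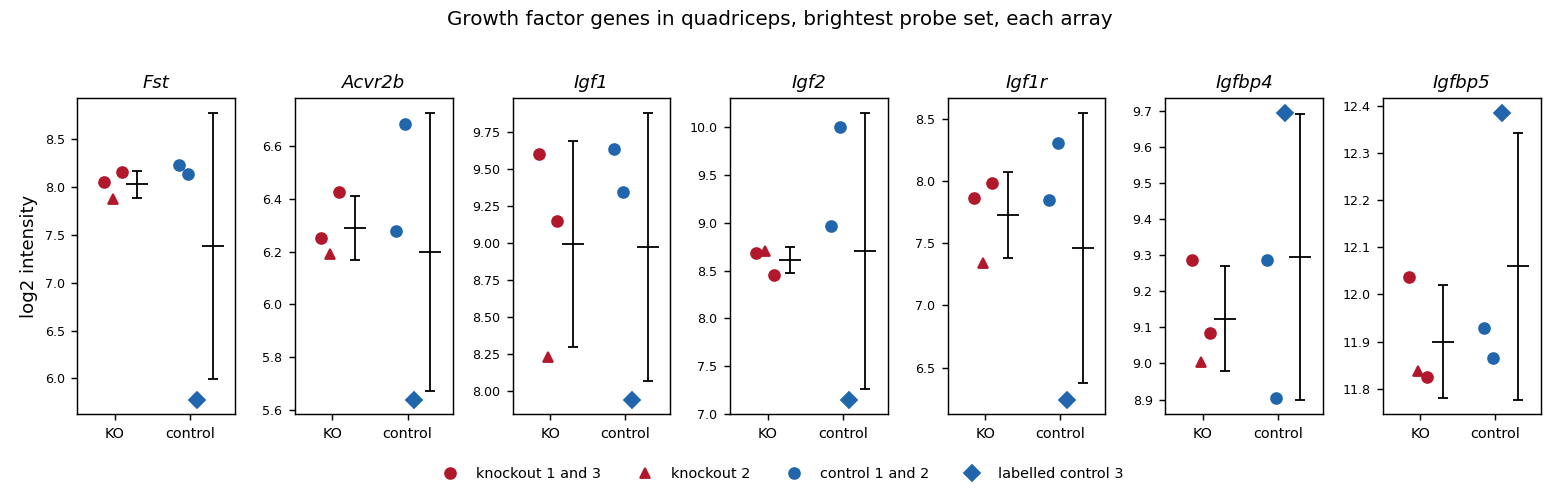
Log2 intensity (vertical axes, a separate scale for each gene) of the brightest probe set of 7 growth factor genes in each knockout (red) and control (blue) array, with black bars for the group mean ± SD of 3 arrays. The sample labelled control replicate 3 (diamond) is the lowest of all 6 for Fst, Acvr2b, Igf1, Igf2 and Igf1r and the highest for Igfbp4 and Igfbp5.

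Follistatin transcript was even across the knockout arrays and in 2 control arrays. At its brightest probe set Fst read 265.9, 234.2 and 284.4 in knockout samples. Its values were 300.8 and 281.3 in control replicates 1 and 2 and 54.8, below background, in the sample labelled control replicate 3. That single array set the difference between the groups. Over 6 arrays the log2 fold change was 0.64 ± 0.64 (SE; limma adjusted p = 0.971), and -0.16 ± 0.15 (limma adjusted p = 0.821) without it. The other Fst probe set, 1421365_at, read 62.9, 66.2 and 56.7 in the knockout and 63.9, 65.4 and 125.8 in the control. Here the same array was the highest of all 6. The correlation of the pair of Fst probe sets was -0.98 over 6 arrays and -0.41 over the 5 without that sample, so the value near -1 rested on it.

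Acvr2b, the type II receptor of myostatin and activins, was close to background. At the brightest probe set it had 76.2, 73.0 and 86.0 in knockout samples and 77.6, 102.7 and 49.8 in control samples. Control samples held both the highest and the lowest value. Its log2 fold change was 0.09 ± 0.27 (SE; limma adjusted p = 0.978), and -0.19 ± 0.17 without the sample labelled control replicate 3 (limma adjusted p = 0.816). A second probe set, 1439856_at, read 55.7, 61.3 and 54.7 in the knockout and 48.0, 53.1 and 45.4 in the control. Its groups did not overlap, but its mean was below background and its limma adjusted p over all probe sets was 0.988. Its log2 fold change was 0.23 ± 0.10 over 6 arrays and 0.18 ± 0.09 without the sample labelled control replicate 3. The third, 1440525_at, was below background in every array, at 40.2 to 43.2 in knockout and 42.4 to 47.8 in control samples.

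Among the 24 probe sets of the members, 2 had groups that did not overlap, 1 higher and 1 lower in the knockout, against 7.66% of all 45101 probe sets. The lower one was 1426565_at of Igf1r, described with that receptor. Of the 24, 5 had a mean below background and 19 above. No probe set of a member had an unadjusted limma p under 0.05, compared with 1.96% of all probe sets.

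Igf1, which encodes IGF-I, was low in 1 array of each group. At the brightest probe set it read 776.8, 300.5 and 569.0 in knockout samples, against 797.3, 650.3 and 245.5 in the samples labelled control replicates 1 to 3. Knockout replicate 2 and the sample labelled control replicate 3, which had the highest Gapdh ratios, were the lowest for each of the 4 Igf1 probe sets. Their values were 2.30-fold and 2.82-fold below the mean of the other 4 arrays at the brightest one. All 4 probe sets followed each other, with pairwise correlations of 0.880 to 0.979 over 6 arrays and 0.848 to 0.987 without the sample labelled control replicate 3. Over all 6 arrays the log2 fold change was 0.02 ± 0.52 (SE; limma adjusted p = 0.998), and -0.50 ± 0.39 without the sample labelled control replicate 3 (limma adjusted p = 0.811). Without both low arrays it was -0.12, with a 95% interval of -0.63 to 0.40. The probe set 1452014_a_at read 443.8, 247.0 and 393.8 in the knockout and 695.7, 405.0 and 273.5 in the control. Control replicate 1 was the highest array there, as at the brightest probe set and at 1437401_at. Summed markers of macrophages, cells that also make IGF-I, were 11270, 7210 and 6761 in knockout samples, against 12958, 7962 and 9345 in the samples labelled control replicates 1 to 3. In whole muscle, fewer cells of a type and less RNA per cell cannot be told apart.

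At the brightest probe sets, Igf2 had the largest difference of the 7 members once the sample labelled control replicate 3 was left out. IGF-II is the ligand made by differentiating myoblasts, and its gene is imprinted. The brightest probe set read 410.3, 417.7 and 351.2 in knockout samples and 500.1, 1027.5 and 141.5 in control samples. Knockout values lay close together, below control replicates 1 and 2 and above the sample labelled control replicate 3. Over 6 arrays the log2 fold change was -0.09 ± 0.65 (SE; limma adjusted p = 0.994), with an exact two-sided permutation p of 0.9, where the smallest possible value was 0.1. Without that array it was -0.87 ± 0.30, or 1.83-fold lower in the knockout, with an unadjusted limma p of 0.0262 and an adjusted p of 0.802. Without control replicate 2 instead, which held the highest value, it was 0.56. Control replicate 2 and knockout replicate 2 were the samples with high Xist, and the part of this in the Igf2 values without the sample labelled control replicate 3 was not tested. A term for high or low Xist could not move the log2 fold change of -0.09 over 6 arrays. Each group held 1 sample with high Xist, so that term was balanced over the groups. Among the 7 members, 1 had an unadjusted p under 0.05 without the sample labelled control replicate 3, and 1 had groups that did not overlap, Igf2 in both cases. Of all genes, 5.99% had such a p in that fit and 24.5% had no overlap. The other Igf2 probe set read 41.0 to 44.6 and was below background in every array.

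**Figure D2:**
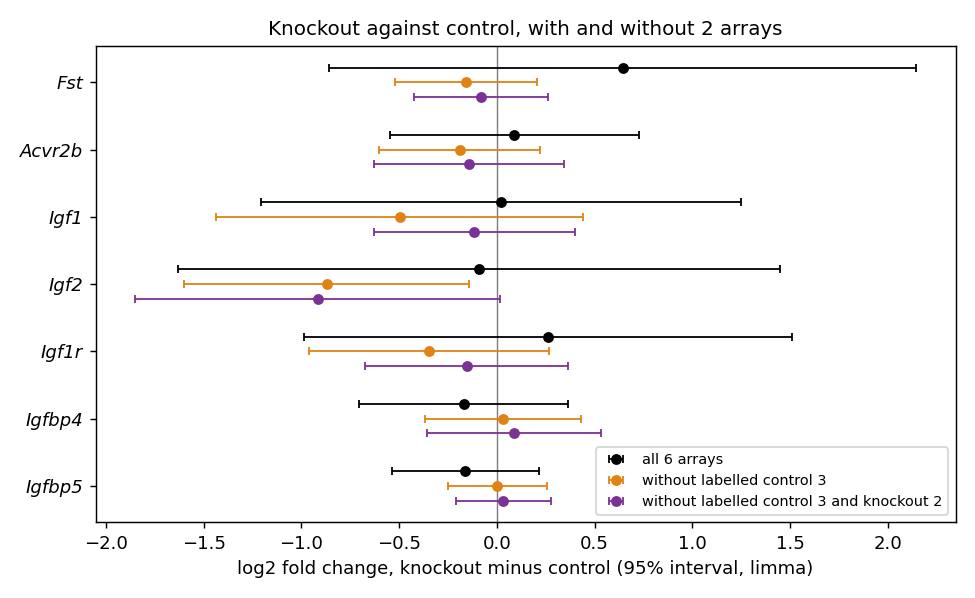
Log2 fold change, knockout minus control (horizontal axis), of 7 growth factor genes with 95% intervals from limma, over all 6 arrays (black), without the sample labelled control replicate 3 (orange) and without that array and knockout replicate 2 (purple). The interval of Igf2 without the sample labelled control replicate 3, -1.60 to -0.14, is the only one that leaves out 0, and its adjusted p was 0.802.

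Igf1r, the receptor for both IGFs, had probe sets that disagreed. The brightest read 232.8, 161.7 and 252.5 in knockout samples and 230.1, 316.0 and 75.6 in control samples. Its lowest values were again those of the sample labelled control replicate 3 and of knockout replicate 2. The log2 fold change was 0.26 ± 0.53 (SE; limma adjusted p = 0.971), and -0.35 ± 0.25 without the sample labelled control replicate 3 (limma adjusted p = 0.811). The probe set 1426565_at read 56.1, 61.4 and 50.3 in the knockout and 63.7, 66.8 and 88.9 in the control. All knockout values lay below all control values, at a log2 fold change of -0.38 ± 0.18 and a limma adjusted p of 0.988 over all probe sets. It was -0.23 ± 0.12 without the sample labelled control replicate 3. This probe set was near background, and the sample labelled control replicate 3, the lowest at the brightest probe set, was the highest here. Another, 1452982_at, read 115.2 in each of the 3 knockout samples, and 104.2, 162.6 and 48.0 in control samples. The knockout values were identical to the last digit deposited, which happened for 83 of 45101 probe sets, so the spread of 0 there is no measure of variation between samples. RMA summarises the probes of a probe set by a median fit, which can give several arrays the same value. The remaining probe sets, 1452108_at and 1446303_at, read 41.7 to 53.4 over the 6 arrays and were below background in each.

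Igfbp4, whose product binds IGFs and restrains their action until it is cut by the protease PAPP-A, had overlapping groups at each of its 6 probe sets. The brightest probe set read 623.8, 513.5 and 542.4 in knockout samples and 624.3, 478.8 and 828.1 in control samples. Here the sample labelled control replicate 3 was the highest. The log2 fold change was -0.17 ± 0.23 (SE; limma adjusted p = 0.971) and 0.03 ± 0.16 without that array (limma adjusted p = 0.970). The 5 other probe sets had log2 fold changes of -0.19 to 0.08 over 6 arrays. Among them, 1421991_a_at read 66.6 to 69.9 in knockout samples and 59.0 to 76.9 in control samples.

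Igfbp5 had probe sets that differed in the arrays with high Gapdh ratios. The brightest, 1452114_s_at, read 4204, 3659 and 3625 in knockout samples and 3897, 3732 and 5351 in control samples. The values were similar in all arrays except the one labelled control replicate 3, the highest. The log2 fold change was -0.16 ± 0.16 (SE; limma adjusted p = 0.971), and 0.00 ± 0.10 without that array, with a 95% interval of -0.25 to 0.26. The other probe set, 1422313_a_at, read 349.5, 74.3 and 484.9 in knockout samples and 561.5, 593.8 and 54.0 in control samples. Knockout replicate 2 and the sample labelled control replicate 3 were low there. Knockout replicate 2 lay 6.56-fold below the mean of the other 4 arrays. The sample labelled control replicate 3 was itself below background, so it lay at least 8.15-fold below that mean, counted from background. At 1452114_s_at knockout replicate 2 was 1.06-fold below that mean, and the sample labelled control replicate 3 was above it. Without both of these arrays, 1422313_a_at read 349.5 and 484.9 in the knockout and 561.5 and 593.8 in the control, a log2 fold change of -0.49 ± 0.19 with a limma adjusted p of 0.757. In that setting 36.0% of all probe sets had groups that did not overlap. An _s_at probe set, in the platform's naming, may match transcripts of more than 1 gene.

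The gap between probe sets of a gene was set against all genes with more than 1 single-gene probe set above background. Values below background were first set to it in every array. Among others, this applied to the low probe set of Igfbp5 and of Fst in the sample labelled control replicate 3. In knockout replicate 2 the Igfbp5 probe sets differed by 2.64 log2 units in their distance from the mean of the other 4 arrays, a gap exceeded by 8 of 4791 genes, and the median gene had 0.37. In the sample labelled control replicate 3 the Igfbp5 gap was 3.50, exceeded by 23 of 4791 genes, with a median of 0.80. Fst had a gap of 0.35 in knockout replicate 2 and of 3.24, exceeded by 40 genes, in the sample labelled control replicate 3. Igf1 had gaps of 0.57 in knockout replicate 2 and 0.71 in the sample labelled control replicate 3, with all 4 of its probe sets low in both. For the same arrays in that order, the gaps were 0.64 and 2.27 for Igf1r and 0.34 and 1.04 for Igfbp4. The larger Igf1r gap was exceeded by 289 genes.

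Both arrays with high Gapdh ratios read below each of the other 4 at 10 of the 19 member probe sets above background, or 52.6%. Over all 22166 probe sets above background this share was 28.0%. The members share genes, with 4 of the 10 belonging to Igf1, and the part of RNA integrity in these values was not tested. The sample labelled control replicate 3 was the lowest of all at 10 of the 19 and the highest at 5, compared with 47.6% and 23.3% of all probe sets above background.

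**Figure D3:**
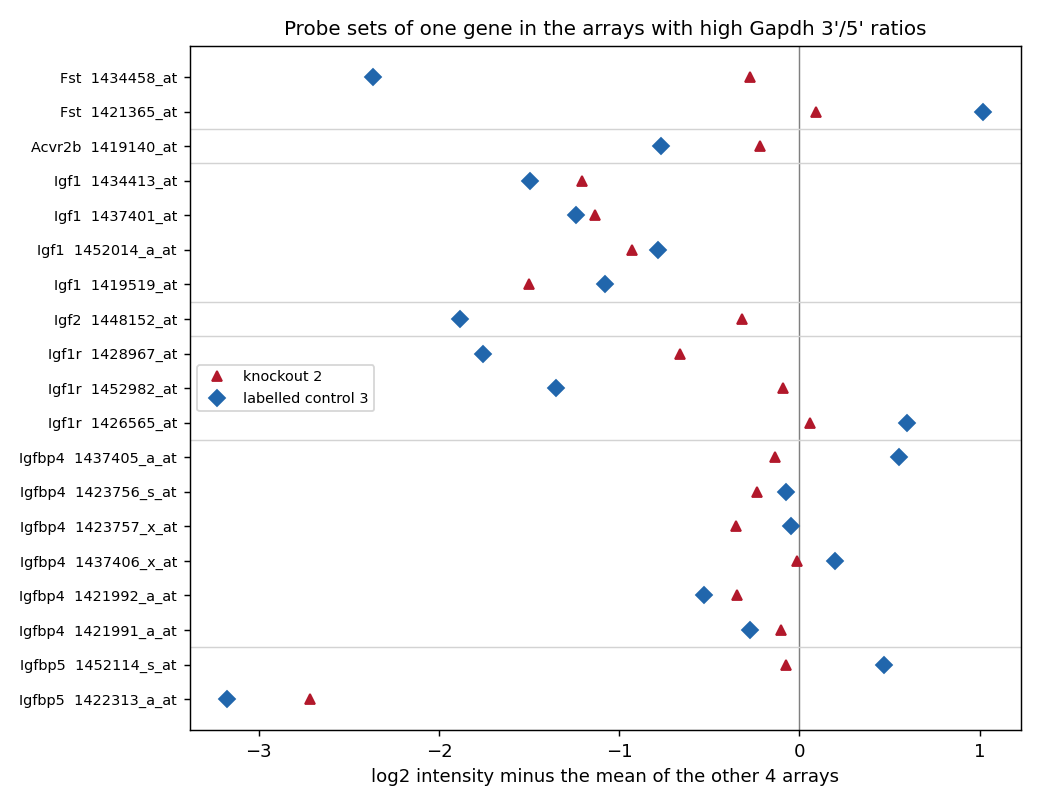
Log2 intensity of knockout replicate 2 (red triangles) and the sample labelled control replicate 3 (blue diamonds) minus the mean of the other 4 arrays (horizontal axis) for the 19 member probe sets above background, grouped by gene. The Igf1 probe sets are all low in both arrays, whereas those of Igfbp5 and Fst split, with 1422313_a_at at -2.71 and -3.17 and 1434458_at at -0.27 and -2.37, where the sample labelled control replicate 3 was below background for both.

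Other components of the activin and myostatin branch had no gene past the threshold in either direction. Of 12 extracellular components 7 had higher values (46.3% of all genes did) in the knockout and 5 lower, with a median log2 fold change of 0.01 beside -0.01 over all genes. Without the sample labelled control replicate 3, 5 were higher and 7 lower, with a median of -0.03. Wfikkn2, which encodes a secreted inhibitor of myostatin, read 89.8, 102.2 and 84.1 in the knockout and 89.2, 122.8 and 151.9 in the control (log2 fold change -0.37 ± 0.25, SE, and -0.19 ± 0.20 without the last of these). Fstl1, Fstl3 and Dcn, which encode follistatin-like proteins and the matrix proteoglycan decorin, had log2 fold changes of -0.23, -0.10 and 0.24. Without the sample labelled control replicate 3 they had -0.25, -0.033 and -0.16, so the sign turned for Dcn. Of 11 receptors, SMADs and SMAD repressors 9 had higher values, with a median of 0.28. Without the sample labelled control replicate 3 the median was 0.11 and 6 of 11 were higher.

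Acvr1b, the type I receptor used by myostatin and activins, read 838.3, 1006.8 and 895.8 in the knockout and 735.0, 838.3 and 627.4 in the control. Its log2 fold change was 0.32 ± 0.16 (SE; limma adjusted p = 0.971), and 0.21 ± 0.13 without the sample labelled control replicate 3. Skil, a repressor of SMAD activity, read 1000.0, 1300.4 and 984.7 in the knockout and 912.3, 950.8 and 834.8 in the control. All its knockout values lay above all control values, at 0.27 ± 0.16 over 6 arrays and 0.22 ± 0.15 without that sample, and the same placement occurred in 3.33% of all genes. Acvr2a, the other activin type II receptor, had 0.29 ± 0.19 over 6 arrays and 0.26 ± 0.21 without it, with 3125 in knockout replicate 2 and 1840 to 2082 in the other 5 arrays. Smad7, an inhibitory SMAD, read 196.7, 206.4 and 208.2 in the knockout and 181.6, 268.5 and 645.8 in the control, so its log2 fold change of -0.63 ± 0.44 rested on the sample labelled control replicate 3 and was -0.12 without it.

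In the bone morphogenetic protein (BMP) branch, which opposes myostatin signalling in muscle, 0 of 12 measured genes passed. Values were higher for 7 and lower for 5, with a median log2 fold change of 0.06. Omitting the sample labelled control replicate 3 gave 9 higher and 3 lower, with a median of 0.09. Id1, a target of BMP signalling, read 112.7, 101.7 and 132.3 in the knockout and 102.8, 80.8 and 71.2 in the control (0.45 ± 0.22, SE, and 0.33 ± 0.20 without the last of these). Bmpr1a, a type I BMP receptor, had 0.54 ± 0.34 over 6 arrays and 0.14 without the sample labelled control replicate 3, in which it read 367.0. Smad5 and Bmpr1b had -0.26 and -0.25 over 6 arrays and -0.22 and -0.10 without that sample.

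The remaining extracellular IGF components also held no gene past the threshold, with 7 of 11 measured genes higher and 4 lower, at a median log2 fold change of 0.06. These were 5 higher and 6 lower, at a median of -0.02, without the sample labelled control replicate 3. Igfals, which encodes the acid-labile subunit that stabilises circulating IGF complexes, read 52.0, 61.1 and 63.4 in the knockout and 84.5, 100.1 and 60.3 in the control. The log2 fold change was -0.45 ± 0.21 (SE) over 6 arrays. Without the sample labelled control replicate 3 it was -0.65 ± 0.14, with an unadjusted limma p of 0.0031 and an adjusted p of 0.802, and 3.95% of all genes had lower values with an unadjusted p under 0.05 in that fit. Its knockout values straddled background. Igfbp3 and the protease gene Pappa2 had 0.44 ± 0.28 and 0.41 ± 0.23 over 6 arrays, and 0.30 ± 0.27 and 0.39 ± 0.26 without that sample. For Pappa2, 1 array, knockout replicate 1 at 113.1, lay apart from the other 5 at 56.8 to 67.6. Igfbp1, a binding protein of liver, was below background in every array.

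Downstream of the IGF receptor, 10 of 21 measured genes had higher and 11 lower values, none past the threshold, with a median log2 fold change of 0.00. Without the sample labelled control replicate 3, 14 of 21 were lower (52.0% of all genes were), with a median of -0.13 beside 0.00 over all genes. In that fit 2 of the 21 had lower values with an unadjusted limma p under 0.05, against 3.95% of all genes. They were Akt1 and Grb2. Akt1, the kinase at the centre of this branch, read 281.2, 218.5 and 271.0 in the knockout and 411.1, 390.6 and 214.2 in the control. The sample labelled control replicate 3 held its lowest value, and without it the log2 fold change was -0.65 ± 0.16 (SE; limma unadjusted p = 0.0065, adjusted p = 0.802), against -0.35 ± 0.29 over 6 arrays. Grb2, an adaptor of receptor tyrosine kinases, read 638.3, 613.1 and 1020.2 in the knockout and 1205.1, 1163.1 and 808.3 in the control, at -0.50 ± 0.26 over 6 arrays and -0.69 ± 0.23 without that array. Gsk3b, a kinase inhibited by Akt, had 0.46 ± 0.34 over 6 arrays and 0.04 without it. Igf2r, which clears IGF-II from the cell surface, had 0.19 ± 0.14 over 6 arrays and 0.15 ± 0.12 without it.

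**Figure D4:**
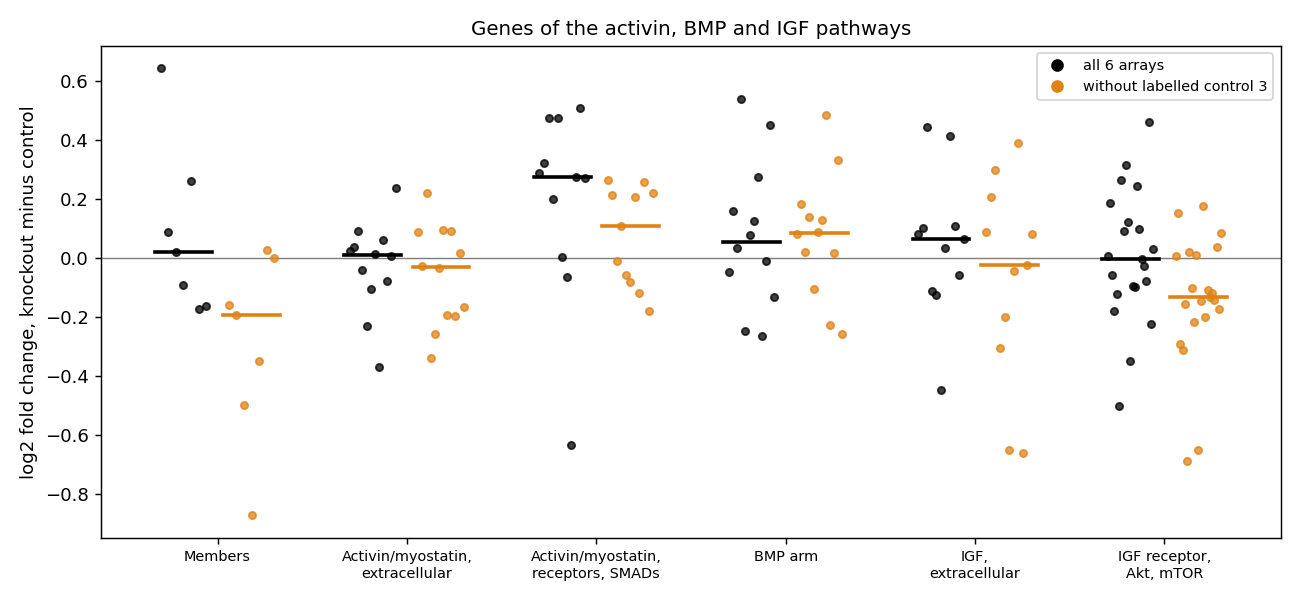
Log2 fold change, knockout minus control (vertical axis), of each measured gene in the member list and 5 pathway lists, over all 6 arrays (black) and without the sample labelled control replicate 3 (orange), with bars at the medians. The median of the receptor and SMAD list is 0.28 and 0.11, and that of the list downstream of the IGF receptor 0.00 and -0.13.

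The level of each member across samples was also compared with that of 11318 other genes above background, by Pearson correlation of log2 values over 6 arrays. The closest were Hprt and Rchy1 for Fst, Macrod2 and Kcnk2 for Acvr2b, Selenon and Lpar4 for Igf1, and Abhd18 and Septin10 for Igf2. For Igf1r they were Terf2ip and Rell1, for Igfbp4 Rab31 and Maip1, and for Igfbp5 Fancl and Rhoc. Correlations of these pairs were 0.990 to 0.999 over 6 arrays and 0.942 to 0.996 over the 5 arrays without the one labelled control replicate 3. The pairs were picked for their high correlation in these same arrays, so neither range is a test of them. Points of such a comparison share the sample labelled control replicate 3 and its low or high values, so the correlations describe these arrays only.

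Markers of other cell types gave no gene past the threshold either. Summed intensity of 6 fibroblast markers was 9290 to 13499 in knockout and 11224 to 11782 in control samples, and that of 5 adipocyte markers was 5088 to 9195 and 5500 to 6679. Satellite cell markers, 4 genes, summed to 685 to 784 in knockout samples and to 905.9, 920.2 and 464.7 in the samples labelled control replicates 1 to 3. As for Igf2, control replicates 1 and 2 lay above all knockout samples and the sample labelled control replicate 3 below them. That sample was the lowest array at 47.6% of all probe sets above background. Without it 24.5% of all genes had groups that did not overlap. Of the 4 satellite cell genes 2 had higher values in the knockout over 6 arrays. The part of these cells in the values of Igf2 was not tested. Endothelial markers, 6 genes, summed to 1886 to 1975 in knockout and 1576 to 1817 in control samples. The 6 smooth muscle markers, of which Cnn1 was below background, summed to 4036 to 4350 and 3401 to 5157. Of 3 erythroid markers 2 were measured, at sums of 115.1 to 166.9 in knockout and 108.4 to 259.2 in control samples. Only 1 of them had a mean above background, and Hba-a1 did not.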

How the data were processed

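RNA of 3 knockout and 3 control quadriceps samples was measured on 1 array each. Trizol-extracted RNA was column-purified and, per the labels' protocols, amplified to biotin-labelled cDNA. The authors deposited probe set intensities, linear as judged from their range of 37.2 to 16069. GCOS and RMA are named in the submitters' processing notes, with versions not given in the sources used here. Whether the values were scaled again stays unknown, and RMA compresses differences of dim probe sets.

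Intensities were log2-transformed with no pseudocount. For each of 18194 genes the brightest of its single-gene probe sets was used, and all 45101 probe sets were fitted separately. Of the probe sets 34958 were listed with 1 gene, 932 with several, and 9211 were not listed. limma 3.58.1 in R 4.3.3 was used (eBayes with a variance trend, no term besides group, two-sided tests, Benjamini-Hochberg over all features). Its script was run on simulated data with independent noise and no outlying array, which checks the code and not the results here. The labels do not say that samples of a group are separate animals, so p-values measure only the spread between these samples. The number of arrays limits the precision.

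The members and gene lists were chosen with earlier results of these data known. Described were all member probe sets (some of Igf1, Igf2 and Igfbp4 by range or count), the 4 genes of each pathway list with the smallest p, the 2 genes most correlated with each member, and Pofut1. Alternatives were quantile normalization, a term for the replicate number, median centring, array weights, no variance trend, a filter on genes below background, the mean of probe sets, a term for high or low Xist, and omission of each array or of both arrays of highest Gapdh ratio. The last was added after seeing the data for probe sets. Promoter sequences are from RefSeq, GRCm38.p6.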

Additional observations from a re-analysis of the deposited data

How the results depend on the processing

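No member gene and no gene of the table passed the adjusted threshold under any of the 15 alternatives, and no member probe set did in the 9 run for probe sets. Adjusted p of the member genes were 0.518 or higher. Of 105 recomputed member fold changes 24 had the opposite sign, and the cause was not tested. The 105 include values from settings that could not move a fold change. These were the terms for replicate number and for Xist, the fit without a variance trend and the filter on genes below background. Quantile normalization gave -0.016 for Igf1 and the mean of probe sets -0.083, with 0.13 for Fst and 0.045 for Igf1r, against 0.64 and 0.26 at the brightest probe set. Array weights gave -0.076 for Fst, -0.098 for Acvr2b, -0.25 for Igf1, -0.14 for Igf1r, 0.011 for Igfbp4 and 0.011 for Igfbp5, and took Igf2 to -0.70. Without both arrays of highest Gapdh ratio the log2 fold changes were -0.081 for Fst, -0.14 for Acvr2b, -0.12 for Igf1, -0.15 for Igf1r, 0.090 for Igfbp4 and 0.034 for Igfbp5, and -0.92 for Igf2. Leaving out each array in turn gave ranges of -0.16 to 1.07 for Fst, -0.19 to 0.33 for Acvr2b, -0.50 to 0.40 for Igf1, -0.87 to 0.56 for Igf2, -0.35 to 0.68 for Igf1r, -0.37 to 0.030 for Igfbp4 and -0.26 to 0.0026 for Igfbp5. Leaving out 1 array gave 10 of the sign changes, and 6 of these 10 came from leaving out the sample labelled control replicate 3. With the replicate block 0 genes passed and 377 had an unadjusted limma p under 0.05, against 469 without it. Same-numbered samples had correlated deviations of 0.19, -0.15 and -0.11, so no pairing by number was shown, though both samples numbered 2 had high Xist, and knockout replicate 2 correlated best with control replicate 3, at 0.22. That unadjusted count was 1854 with array weights, 786 without a variance trend, 284, 276 and 284 without knockout replicate 1, 2 or 3, 1090 without the sample labelled control replicate 3 and 1362 without both arrays.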
